A study of Mus musculus with 24 samples.

Results

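Potassium channel genes were examined in peripheral efferent and afferent nerve fibres of mice from birth to young adulthood. All gene probes of the array whose gene name starts with Kcn were collected, which gave 181 probes of 98 genes. A gene was kept where some group of the 8 had a probe flagged well above background on each of its 3 arrays, and each gene was represented by its probe with the highest mean over the 24 arrays. This left 76 genes of the 23864 gene names that had a probe tested, and 46 of them were above background on all 24 arrays. The 22 genes that did not pass included Kcna3, Kcnq3, Kcnj3 and Kcnj6. All 76 symbols were found in RefSeq, 71 of the probes' own accessions pointed to the same symbol there, and the other 5, Kcnj9, Kcnmb2, Kcnn1 and Kcnq5 among them, were matched by symbol only.

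The nerve fibres came from C57BL/6 mice of both sexes, from the roots of spinal segments L4 to L6. Efferent fibres (EN) are those of the ventral roots and carry mainly motor axons, and afferent fibres (AN) are those of the dorsal roots and hold the central branches of dorsal root ganglion neurons. Both kinds were taken at birth (P0) and at the ages of 1, 3 and 5 weeks, written 1 W, 3 W and 5 W, from mice without any treatment or genetic change, with 3 one-colour arrays for each fibre type and age. The methods describe several animals per age whose fibres were gathered in 1 tube per group, and they also state that the experiments behind each group were independent. No source says which animals stand behind which replicate, so the p-values measure only the spread between these samples, and how much of it is technical is not known.

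Potassium channels let potassium leave or enter the cell, set the resting potential and end the action potential. In myelinated axons voltage-gated Kv1 channels gather beside the nodes of Ranvier under the myelin, where contactins and contactin-associated proteins hold them, and Kv7 channels sit at the nodes themselves. Glial cells carry inwardly rectifying (Kir) and two-pore (K2P) channels that hold the membrane near the potassium equilibrium and take up potassium released by active axons. Axons hold some RNA of their own, but most RNA of a nerve root comes from Schwann cells and other non-neuronal cells.

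All levels below are log2 values of the authors' normalized table, and a difference of 1 is a doubling. A difference was called where the limma test, adjusted by Benjamini-Hochberg over all 36409 probes tested, gave p under 0.05 and the fold exceeded 2. Differences are given with their standard error (SE). Levels of different genes are not compared, because each probe has its own brightness.

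The results turn on a few probes, and the first 30 bases of each of their 60 base sequences are printed here. They are placed on mouse build mm9 by the coordinates in the scanner files and read 5′ to 3′ on the strand given. For Kcnma1 and Kcnq5 a further probe is printed beside the one used because it gave a different result.
Kcnj10, chr1:174304062-174304091, plus strand: gaaacagaagaatctagggatgatttctct
Kcna6, chr6:126658454-126658483, minus strand: gagagttgctggtctgatcaaaggagagga
Kcna1, chr6:126586554-126586583, minus strand: gcgcatagttttcatctatgcaattttact
Kcnk1, chr8:128554281-128554310, plus strand: cctaacaaactcaagagaaaatcggtacga
Kcnma1, chr14:24111738-24111767, minus strand: agagcgtggtttgtttctttgtctttcaca
Kcnma1, other probe, chr14:24344114-24344143, minus strand: gccagcatctccttatccctgtcccccaat
Kcnq5, chr1:21568025-21568054, minus strand: ggaccagaaaagaaatttccccctgacaca
Kcnq5, other probe, chr1:21389097-21389126, minus strand: aggaagttacctaaaacatgtttgccacgt

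Several properties of the samples touch the results. On each array 55.1% to 71.7% of the spots were well above background, and no spot was saturated. The mean level of 10 genes of myelinating Schwann cells was 13.51 to 15.10 at P0 and 16.27 to 16.49 at 5 W over both fibre types, so genes of the labelled tissue were present on every array. The mean level of 9 general neuron genes, such as Snap25, Stmn2 and the neurofilaments, did not separate the fibre types at P0 (13.24 to 14.43 in AN, 13.30 to 13.89 in EN). At 1 W it lay between 10.90 and 12.12 in EN and reached 14.13 in AN, with no overlap. The third AN array at 3 W stood apart with 15.26 against 11.88 and 11.44 on the other two AN arrays and 11.06 to 11.40 in EN. At 5 W the third AN array gave 10.59, below all EN arrays (11.09 to 11.42), while the other AN arrays gave 12.69 and 12.87. Motor neuron genes did not mark the EN arrays, since 5 W levels over 5 such genes were 7.03 to 8.09 in EN and 7.45 to 7.78 in AN. At 1 W their mean was lower on every EN array, with 6.69 to 7.23 in EN and 7.76 to 8.06 in AN. In these pieces of tissue fewer cells of a type and less RNA per cell cannot be told apart.

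The comparison of afferent with efferent fibres at each age asked where the channel genes of sensory and motor roots differ. At P0 the fibre types were close, and Kcnk1, a weak inward two-pore channel, was the only member called, lower in AN. At the later ages 14, 14 and 15 members were higher in AN and none was lower by limma, among them the large-conductance calcium-activated channel gene Kcnma1, the small-conductance channel gene Kcnn2 and the A-type channel gene Kcnd2. At 3 W and 5 W the glial inward rectifier gene Kcnj10 and the Kv1 gene Kcna6 joined them. Of the members called, Kcnc2, Kcnip2, Kcnj11 and Kcnk12 at 1 W passed the background criterion in AN groups alone. So did Kcnc2 and Kcnip2 at 3 W and Kcnc2 at 5 W. The filter favours a call of higher AN for such genes. In all, 8 members passed in AN groups alone and 1 in EN groups alone.

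The members called made up 1.32%, 18.4%, 18.4% and 19.7% of the 76 at the 4 ages from P0 to 5 W, where 0.327%, 2.79%, 3.11% and 3.31% of all probes tested were called. In the direction of higher AN the shares over all probes were 0.0714%, 2.41%, 2.23% and 2.49%, and in that of lower AN 0.255%, 0.371%, 0.882% and 0.821%. The median AN minus EN difference of the members was 0.11, 0.49, 0.50 and 0.27 in the same order, and that of all probes lay between -0.06 and 0.01. The AN and EN arrays did not overlap for 13, 45, 36 and 31 members (17.1%, 59.2%, 47.4% and 40.8%), where 13.2%, 24.6%, 32.7% and 20.1% of all probes did not overlap. At unadjusted p under 0.05, limma gave 2 members past the fold at P0 (1.12% of all probes) and 22, 27 and 23 at the later ages (4.99%, 5.64% and 5.62%).

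**Figure D1:**
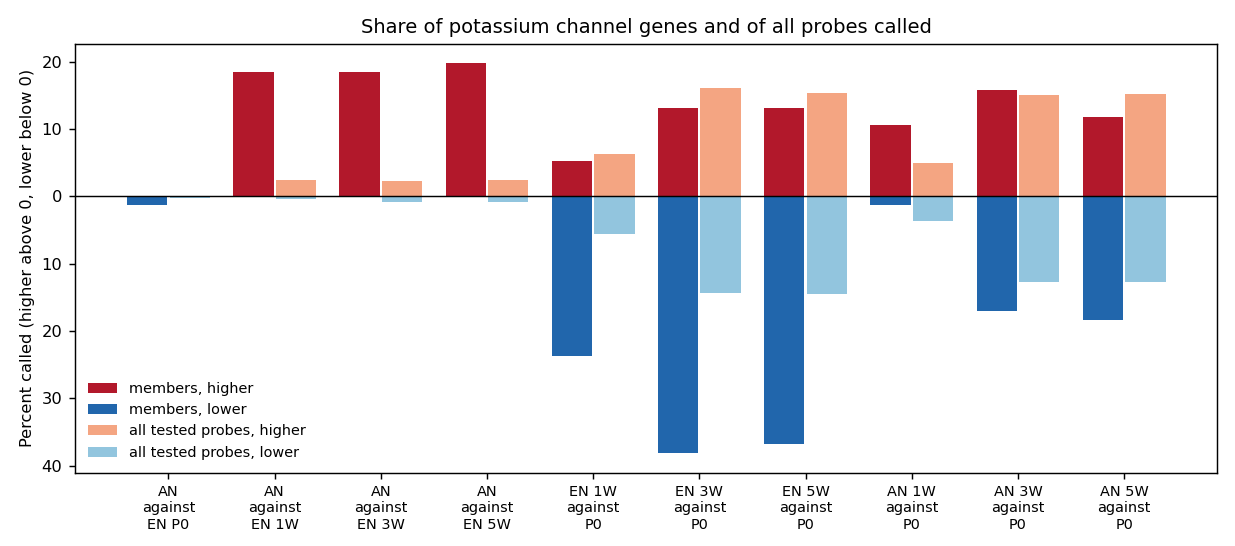
Percent of the 76 potassium channel genes and of all probes tested that were called higher (above 0) or lower (below 0) in each of the 10 comparisons, with the comparison on the horizontal axis. The members called higher in AN than EN reached 18.4% at 1 W and 3 W and 19.7% at 5 W, and no member was called lower in AN after P0.

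The number of calls moved with single arrays. At P0 no member was called without AN replicate 2 or 3 or without EN replicate 1 or 3, and without AN replicate 1 Kcna1 was called too, which made 2. At 1 W 4 members remained without EN replicate 1, 7 without EN replicate 2, and 7, 8 and 7 without AN replicate 1, 2 and 3. Kcnc4, Kcnn1, Kcnn2 and Kcnv1 were called whichever array was left out. At 3 W the count was 9 without AN replicate 3, of which 7 were higher in AN (Kcna6, Kcnc2, Kcnd2, Kcnh8, Kcnj10, Kcnma1 and Kcnn2) and Kcnq1 and Kcns3 were lower. It was 7 without EN replicate 1 and 9 without EN replicate 2, and Kcna6, Kcnc2, Kcnd2, Kcnj10, Kcnma1 and Kcnn2 were called in each case. With the replicate number as a block, 22 members were called at 3 W, 21 of them higher in AN and Kcnq1 lower. At 5 W 9 members were called whichever array was left out: Kcna6, Kcnab3, Kcnc2, Kcnd2, Kcnh8, Kcnj10, Kcnj16, Kcnk10 and Kcnn2.

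Kcnj10, which encodes the main inward rectifier of astrocytes, oligodendrocytes and satellite glia, had the clearest course by fibre type. The EN arrays read 14.83, 14.82 and 14.79 at P0, 13.92, 13.80 and 13.72 at 1 W, 11.38, 11.31 and 11.17 at 3 W, then 10.44, 10.58 and 10.72 at 5 W. The AN arrays read 14.35, 13.89 and 14.15 at P0, 14.45, 14.27 and 14.78 at 1 W, 13.30, 13.14 and 12.92 at 3 W, then 13.14, 13.45 and 12.75 at 5 W. All AN arrays lay below the EN arrays at P0 and above them at the 3 later ages.

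The AN minus EN difference of Kcnj10 was -0.68 ± 0.17 (SE) at P0, which did not pass (limma adjusted p = 0.075), and 0.68 ± 0.17 at 1 W, which was under the fold set (limma adjusted p = 0.0254). It was 1.83 ± 0.17 at 3 W (limma adjusted p = 4.45e-06) and 2.54 ± 0.17 at 5 W (limma adjusted p = 4.65e-08), or 3.56-fold and 5.8-fold. From P0 to 5 W Kcnj10 fell by 4.24 ± 0.17 on the log2 scale in EN (limma adjusted p = 1.69e-12) and by 1.02 ± 0.17 in AN (limma adjusted p = 5.76e-05). The test of whether the AN minus EN difference varied over the 4 ages gave a limma adjusted p of 1.13e-05.

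Kcna6, a Kv1 channel gene of axons, gave the only other member for which that difference varied with age (limma adjusted p = 0.00258), so 2 of the 76 members passed where 0.711% of all probes did. The EN arrays of Kcna6 went from 14.33, 14.72 and 14.12 at P0 to 12.35, 12.39 and 12.87 at 5 W. The AN arrays went from 14.76, 15.23 and 14.55 to 14.55, 14.67 and 14.86. The arrays of the fibre types overlapped at P0, and at 5 W every AN array was above every EN array. Kcna6 was 3.96-fold higher in AN at 3 W and 4.44-fold at 5 W, a difference of 2.15 ± 0.18 (limma adjusted p = 7.5e-07). It fell by 1.85 ± 0.18 in EN from P0 to 5 W (limma adjusted p = 8.54e-08), and in AN the same difference was -0.15 ± 0.18 (limma adjusted p = 0.499). Both Kcnj10 and Kcna6 passed in each of 24 repeats without 1 array. The count passing was 4 without AN replicate 1 at P0, 13 without AN replicate 3 at 3 W, and 4 without AN replicate 3 at 5 W. With the replicate number as a block 10 members passed: Kcna1, Kcna6, Kcnc4, Kcnd2, Kcnh8, Kcnj10, Kcnk1, Kcnk10, Kcnn2 and Kcnu1. The share of all probes that passed is given for the main fit only.

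**Figure D2:**
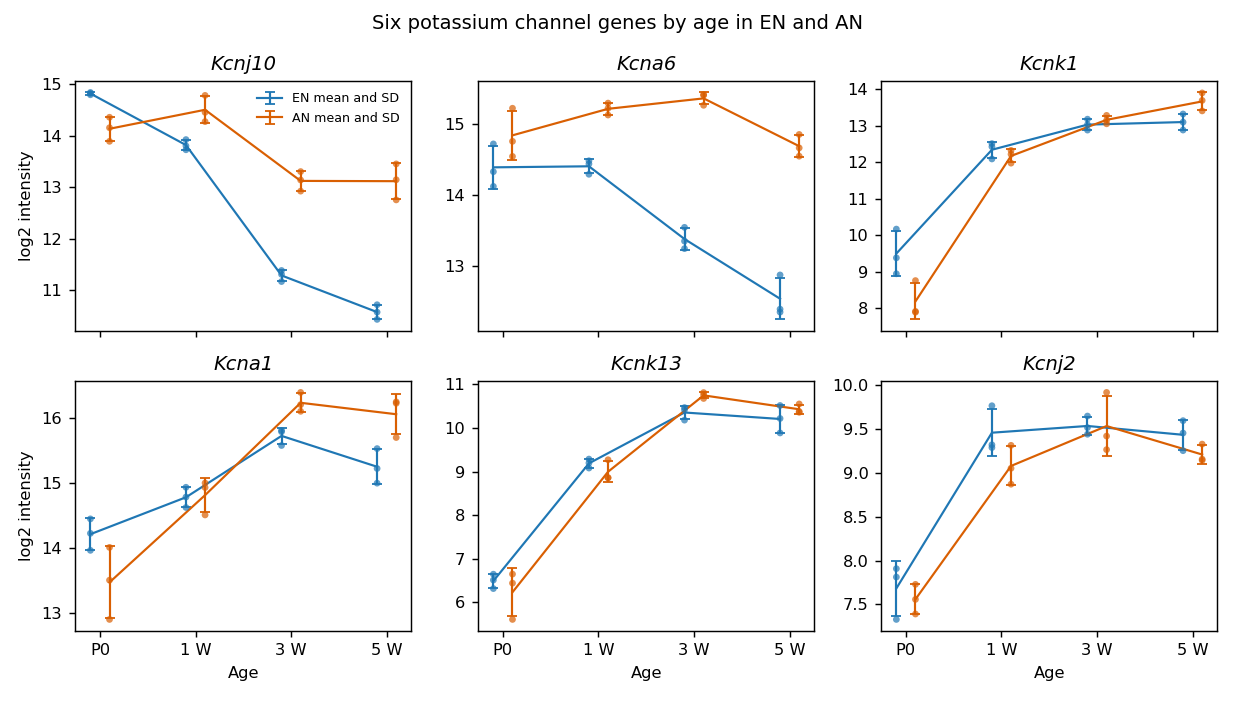
Levels (log2) of Kcnj10, Kcna6, Kcnk1, Kcna1, Kcnk13 and Kcnj2 by age, where each point is 1 array, colours mark EN and AN and the bars show mean ± SD (n = 3). Kcnj10 ended at 10.44 to 10.72 in EN and 12.75 to 13.45 in AN, while both fibre types rose together for Kcnk13 and Kcnj2.

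Marker lists of other glia also differed between the fibre types at the later ages. The mean level of 6 genes of immature and dividing Schwann cells (Ngfr, Ncam1, L1cam, Pou3f1, Mki67 and Top2a) was 10.89 to 10.98 in EN and 12.13 to 12.24 in AN at 3 W, and 9.96 to 10.57 in EN and 10.96 to 11.47 in AN at 5 W. In AN 1, 2 and 3 of these 6 were called higher at 1 W, 3 W and 5 W. At P0 this mean was higher on the AN arrays, with 13.42 to 13.77 against 12.99 to 13.20 in EN, and none of the 6 was called. Against P0, 2, 5 and 5 of the 6 fell in EN at the later ages and 1, 3 and 4 in AN. The mean of 6 astrocyte genes at 5 W was 10.88 to 11.73 in AN and 9.98 to 10.42 in EN, with 3 called higher: Gfap by 2.39, the water channel gene Aqp4 by 2.62 and the glutamate transporter gene Slc1a2 by 2.24. The mean of 7 oligodendrocyte genes at 5 W was 7.97 to 9.64 in AN and 6.78 to 7.83 in EN, with 2 called higher. At P0 the AN means were 10.19 to 10.51 for the astrocyte genes and up to 6.86 for the oligodendrocyte genes, below those at 5 W. The part of these cells in the difference of Kcnj10 was not tested.

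Kcnj16, whose product joins that of Kcnj10 in mixed channels, was higher in AN at all 3 later ages. At 5 W its level was 5.49, 5.30 and 5.06 in EN, where 1 of the 3 arrays was above background, and 8.44, 9.29 and 7.17 in AN. The groups did not overlap, and the difference was 3.01 ± 0.54 (limma adjusted p = 0.00191). Among the other inward rectifiers, Kcnj9, a subunit of G protein-gated channels, was 6.84, 8.79 and 6.44 in AN and 4.47, 5.33 and 5.43 in EN at 5 W, a difference of 2.28 ± 0.55 (limma adjusted p = 0.0156).

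Kcnma1, whose product lets potassium out when calcium and depolarization coincide, was lower in EN after P0. The EN arrays read 9.56, 9.72 and 9.82 at P0, 5.48, 6.64 and 7.45 at 1 W, 5.73, 5.53 and 6.46 at 3 W, then 6.00, 6.17 and 6.20 at 5 W. The AN arrays read 10.16, 10.44 and 9.47 at P0, 9.57, 9.87 and 9.86 at 1 W, 7.90, 8.13 and 10.64 at 3 W, then 8.44, 9.71 and 7.06 at 5 W. From 1 W on, all AN arrays were above all EN arrays, and the AN arrays spread most at 3 W and 5 W. Kcnma1 fell by 3.17 ± 0.64 in EN between P0 and 1 W (limma adjusted p = 0.00133), and the AN difference over the same week was -0.26 ± 0.64 (limma adjusted p = 0.825). At 1 W it was 9.45-fold higher in AN than EN (limma adjusted p = 0.00712).

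Kcnn2 and Kcnc4 also fell in EN by 1 W and were higher in AN. Kcnn2 fell 12.4-fold in EN from P0 to 1 W, to 4.38, 5.60 and 5.91, with 2 of the 3 arrays well above background. In AN it was 8.16, 8.45 and 8.67 at 1 W. A second probe of Kcnn2 did not give this AN minus EN difference, as described below. Kcnc4, a fast-inactivating Kv3 gene, fell by 2.52 ± 0.46 in EN to 5.11, 5.71 and 6.12 and was 8.22, 7.96 and 8.58 in AN. For both genes no AN array overlapped an EN array at 1 W, 3 W or 5 W.

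Kcnd2, which encodes a somatodendritic A-type channel, was not well above background on any EN array at 3 W or 5 W. The EN arrays went from 8.64, 8.37 and 8.32 at P0 to 4.09, 4.18 and 2.67 at 5 W, when the AN arrays read 7.28, 9.19 and 6.36. AN and EN did not overlap at 3 W or 5 W. Its AN level was at least 6.07-fold higher at 3 W (limma adjusted p = 0.00407) and at least 5.93-fold higher at 5 W (limma adjusted p = 0.000185). A bound of this kind sets the mean of the brighter group against the lowest signal that counted as well above background on the dimmer arrays.

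Kcnc2, a Kv3 gene of fast-firing neurons, was likewise not well above background in EN after P0. It was at least 2.26-fold and 2.62-fold higher in AN at 1 W and 3 W. At 5 W the same bound gave 2.18-fold, but only 2 AN arrays were well above background, so this bound is not strict. The silent subunit gene Kcnv1 was at least 4.18-fold higher in AN at 1 W, with 6.54, 7.07 and 7.20 in AN, and the AN arrays at 3 W were 2.62, 3.64 and 8.09. Kcnip2, a calcium-binding partner of A-type channels, was at least 2.83-fold higher in AN at 1 W. The stretch-activated two-pore gene Kcnk10 was at least 2.6-fold higher in AN at 5 W, where no EN array was well above background. Kcnh8, of the ether-a-go-go family, was higher in AN at 3 W by 1.06 ± 0.21 (limma adjusted p = 0.00601) and at 5 W by 1.33 ± 0.21 (limma adjusted p = 0.000724).

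**Figure D3:**
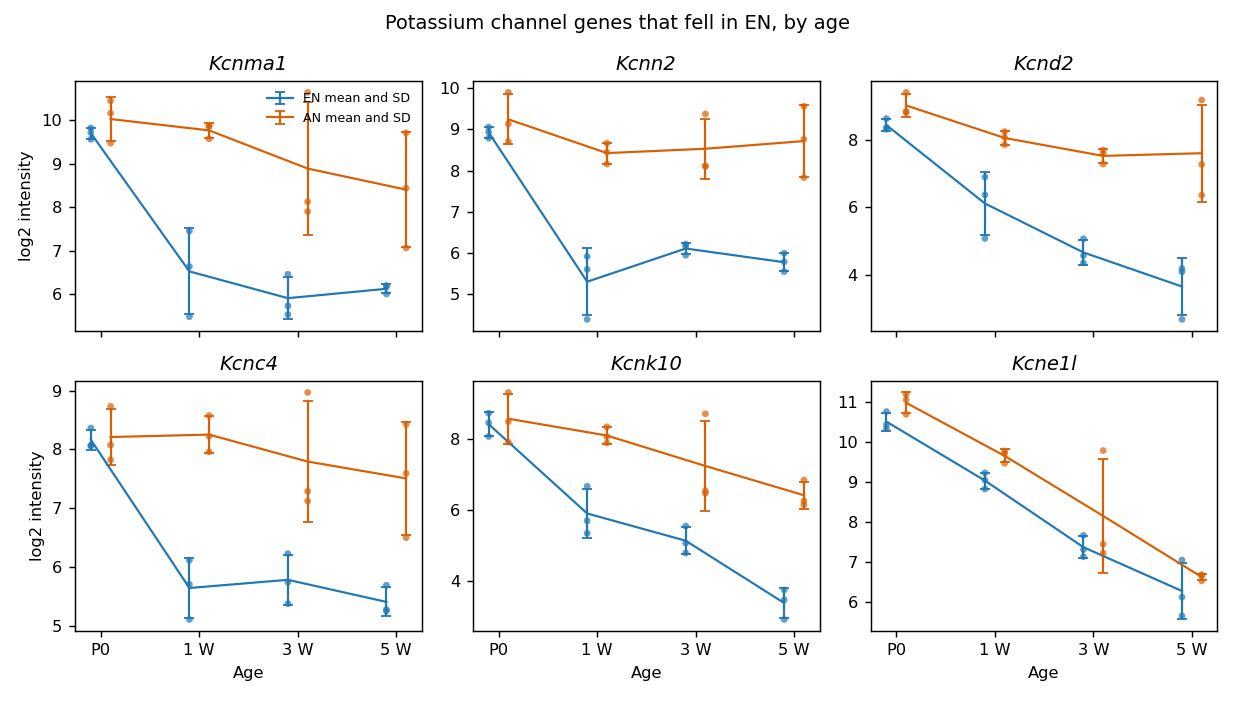
Levels (log2) of Kcnma1, Kcnn2, Kcnd2, Kcnc4, Kcnk10 and Kcne1l by age, where each point is 1 array, colours mark EN and AN and the bars show mean ± SD (n = 3). For the first 5 genes EN fell by 1 W and AN was not called at that age, and Kcne1l fell in both fibre types.

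Neuron markers moved with these genes. Of the 9 general neuron genes 5, 2 and 2 were called higher in AN at 1 W, 3 W and 5 W, and 5, 6 and 6 were called lower in EN than at P0 at these ages. Of 11 sensory neuron genes tested, 9, 2 and 1 were called higher in AN. At 3 W the third AN array, with the neuron mean of 15.26, was the highest of the AN arrays for 11 of the 14 members called. The first AN array was the highest for the other 3, Kcna6, Kcnh8 and Kcnj10. At 5 W the third AN array had a lower neuron mean than all EN arrays. All 15 members called were higher on it than on every EN array, but this array was among those that gave the calls. The same array was the lowest AN array for 10 of the 15, and Kcna6 was highest on it, at 14.86. The part of neuronal RNA in these differences was not tested beyond these values.

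**Figure D4:**
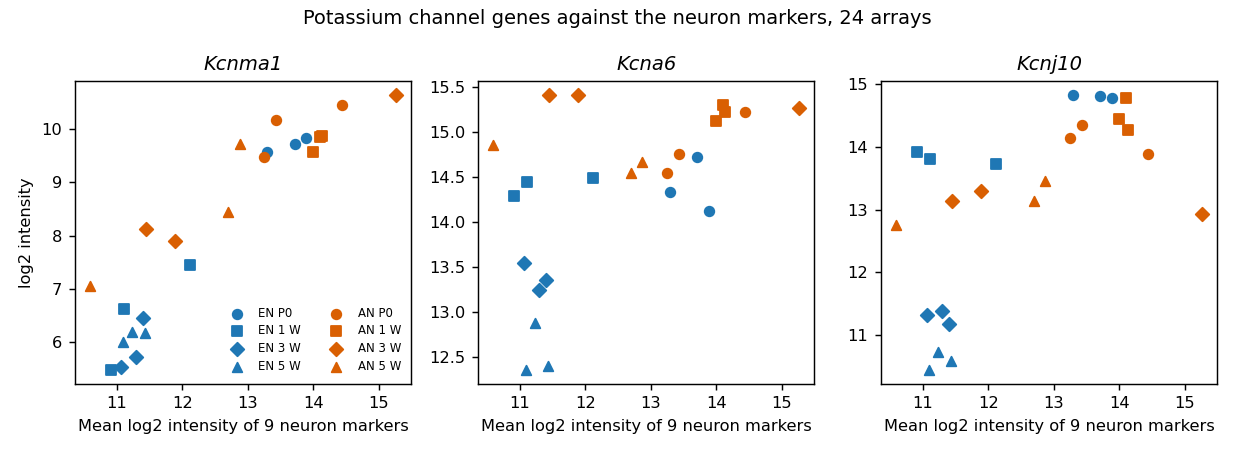
Level (log2) of Kcnma1, Kcna6 and Kcnj10 on the vertical axes against the mean log2 level of 9 neuron genes on the horizontal axis, 1 point for each of the 24 arrays, with colours for fibre type and shapes for age. The AN array at 3 W with the highest neuron mean (15.26) had the highest Kcnma1 of its group (10.64) and the lowest Kcnj10 (12.92).

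The comparison of each age with P0 asked how the channel genes change as the roots mature. In EN 4 members rose and 18 fell by 1 W (28.9% called, against 11.9% of all probes), 10 rose and 29 fell by 3 W (51.3% against 30.5%), and 10 rose and 28 fell by 5 W (50% against 29.9%). In AN 8 rose and 1 fell by 1 W (11.8% against 8.58%), 12 rose and 13 fell by 3 W (32.9% against 27.8%), and 9 rose and 14 fell by 5 W (30.3% against 27.8%). Of all probes, 6.25%, 16.1% and 15.4% rose in EN at these ages, while 5.67%, 14.4% and 14.5% fell. In AN 4.96%, 15% and 15.2% rose, while 3.62%, 12.8% and 12.7% fell. The median EN difference of the members was -0.33, -0.76 and -0.52, where that of all probes was 0.04 to 0.06. In AN the members' medians were 0.05, -0.20 and -0.38, where those of all probes were 0.01 to 0.03. The EN and AN comparisons use different arrays.

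In EN at 1 W the count was 12 without the first EN array of that age, 13 without the second, and 14 without replicate 2 or replicate 3 of EN at P0. In all 10 members were called whichever array was left out, among them Kcnc4, Kcnd2, Kcnj2, Kcnk1, Kcnk10, Kcnk13, Kcnma1, Kcnn2 and Kcnv1. No 3 W array shared a slide with a P0 array. With the slide as a block 19 members were called in EN at 3 W (6 higher, 13 lower) and 14 in AN (9 higher, 5 lower). On the slides that held both ages, 22 of the 22 calls in EN at 1 W and 38 of the 38 at 5 W kept their direction, as did 9 of 9 in AN at 1 W and 22 of 23 at 5 W. These slides hold arrays that gave the calls, so the kept direction cannot test for a slide effect.

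The members that rose in both fibre types were mostly two-pore and inward rectifier genes. At 1 W Kcnj2, Kcnk1, Kcnk13 and Kcnk6 rose in both, which was 100% of the members that rose in EN and 50% of those in AN. At 5 W Kcna1, Kcnj12, Kcnj2, Kcnk1, Kcnk13, Kcnk5 and Kcnk6 rose in both, 70% of the EN and 77.8% of the AN calls. The share of calls common to both fibre types was not computed over all probes. These shares are therefore not a trait shown for the members. The largest rise was that of Kcnk1 in AN, from 8.76, 7.89 and 7.92 at P0 to 13.40, 13.89 and 13.69 at 5 W, a 44.4-fold change (limma adjusted p = 1.03e-11). In EN Kcnk1 went from 10.17, 8.94 and 9.38 to 12.88, 13.32 and 13.09, a 12.1-fold change. At P0 all 3 AN arrays of Kcnk1 were below the EN arrays, a mean difference of -1.31 ± 0.26 (limma adjusted p = 0.0212), and at 5 W all 3 were above them, a difference of 0.57 ± 0.26 that did not pass (limma adjusted p = 0.221). At P0 5 of the 10 myelinating Schwann cell genes were also called lower in AN, with means of 13.51 to 14.22 in AN and 14.77 to 15.10 in EN, and their part in the P0 difference of Kcnk1 was not tested.

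Kcnk13, a two-pore channel gene known from microglia, rose in EN from 6.65, 6.51 and 6.32 at P0 to 9.89, 10.52 and 10.22 at 5 W and in AN from 6.65, 6.44 and 5.61 to 10.38, 10.36 and 10.55. The levels were 6.48-fold and 6.78-fold those at P0 by 1 W, and 13.1-fold and 18.3-fold by 5 W. Kcnj2, a strong inward rectifier gene, rose by 1.75 ± 0.19 in EN and 1.65 ± 0.19 in AN by 5 W, and its relative Kcnj12 by 2.92 ± 0.24 and 2.73 ± 0.24. Kcnj12 at 5 W was 11.48, 11.24 and 11.61 in EN and 11.51, 11.05 and 11.68 in AN, against 8.46 to 8.56 and 8.09 to 9.37 at P0. The arrays of the fibre types overlapped at 5 W for both Kcnj12 and Kcnk13. The 10 myelinating Schwann cell genes moved alongside, with 5 called higher than at P0 in EN at each later age and 6, 6 and 7 in AN. The mean level of 5 macrophage genes rose too, from 10.66 to 11.06 at P0 to 11.63 to 12.54 at 5 W over both fibre types. The part of either list in these rises was not tested.

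The Kv1 genes split. Kcna1, a juxtaparanodal channel gene, rose in both fibre types, by 1.03 ± 0.23 in EN (limma adjusted p = 0.000946) and by 2.58 ± 0.23 in AN (limma adjusted p = 3.22e-08) at 5 W. The EN arrays went from 14.45, 13.97 and 14.23 at P0 to 15.53, 15.00 and 15.22 at 5 W, and the AN arrays from 14.01, 12.91 and 13.51 to 16.24, 15.70 and 16.22. The AN arrays were all above the EN arrays at 5 W, by a difference of 0.81 ± 0.23 that was under the fold set (limma adjusted p = 0.0412). Kcna2, its partner subunit, rose in AN by 1.73 ± 0.30 (limma adjusted p = 9.48e-05), and in EN its difference was 0.32 ± 0.30 (limma adjusted p = 0.387). The test of the difference between fibre types over age did not pass for Kcna1 (limma adjusted p = 0.0845) or Kcna2 (limma adjusted p = 0.349). With the replicate number as a block Kcna1 passed and Kcna2 did not.

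Members that fell in both fibre types were fewer than those that rose in both at 1 W (1 against 4). The counts were 9 and 9 at 3 W and 11 against 7 at 5 W. At 5 W the 11 that fell in both were Kcnab3, Kcnd2, Kcnd3, Kcne1l, Kcnj10, Kcnk10, Kcnma1, Kcnq5, Kcnrg, Kcns1 and Kcnv1, 39.3% of the EN and 78.6% of the AN calls. No such share was computed over all probes here either. Kcne1l, a single-pass subunit gene of the KCNE family, fell by 4.23 ± 0.46 in EN (limma adjusted p = 3.49e-07) and fell by 4.35 ± 0.46 in AN (limma adjusted p = 2.47e-07). Its levels went from 10.76, 10.44 and 10.34 to 6.13, 5.66 and 7.06 in EN and from 11.20, 10.69 and 11.06 to 6.66, 6.69 and 6.54 in AN. It was also the only member that fell in AN by 1 W, where 18 fell in EN.

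By structural family, the Kv3 genes had 3 of 4 members lower in EN at each later age and none called in AN. Of the 4 small- and intermediate-conductance calcium-activated genes 2, 3 and 2 were lower in EN at 1 W, 3 W and 5 W and 0, 1 and 0 in AN. Of the 11 two-pore genes 4 rose and 2 fell in EN at 5 W, and 4 rose and 1 fell in AN. Of the 12 inward rectifier genes 3 rose and 2 fell in EN at 5 W, and 3 rose and 1 fell in AN. Of all probes, 5.67%, 14.4% and 14.5% fell in EN at 1 W, 3 W and 5 W, and 3.62%, 12.8% and 12.7% fell in AN. At 5 W 15.4% of all probes rose in EN and 15.2% in AN. A fall of 1 or 2 members in a family of 11 or 12 is near these shares. The silent subunit gene Kcns3 went the other way from its relative Kcns1 in EN: it rose by 2.19 ± 0.52 by 5 W (limma adjusted p = 0.00172) while Kcns1 fell by 3.38 ± 0.71 (limma adjusted p = 0.000547).

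**Figure D5:**
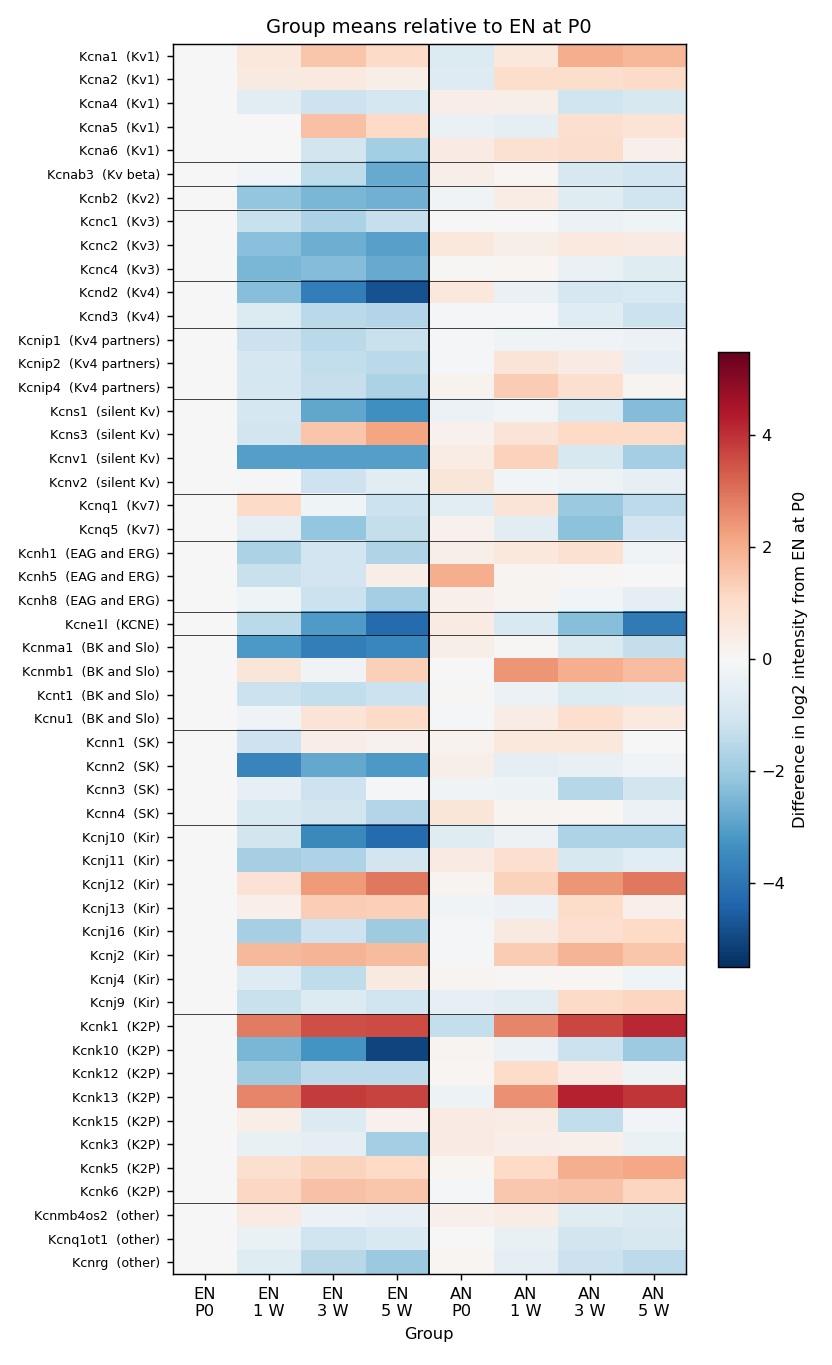
Mean log2 level of each group minus that of EN at P0 for 52 of the 54 members called in at least 1 comparison, with genes in rows and the 8 groups in columns. Values drawn run from -5.05 to 4.25, the lowest being Kcnk10 in EN at 5 W, where none of the 3 arrays was well above background, so that it is not an exact difference, and 22 members were called in no comparison.

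The 22 members never called include Kcnk2, Kcnk4, Kcnh2, Kcnd1, Kcnj8 and Kcnmb4. Kcnj5, a G protein-gated subunit gene, was the single member that passed the background criterion in EN groups alone. Kcnb2, Kcnc2, Kcnh5, Kcnip2, Kcnj11, Kcnj4, Kcnk12 and Kcnmb1 passed it in AN groups alone.

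Of 24 genes for proteins that anchor or modulate these channels, 21 were tested. In AN 6, 5 and 5 were called higher than in EN at 1 W, 3 W and 5 W and none lower by limma, and the median difference was 0.49, 0.61 and 0.56. Cntnap2, which holds Kv1 channels beside the node, was higher in AN by 4.32, 3.45 and 3.02 at these ages, and its partner Cntn2 by 3.89 and 2.66 at 1 W and 3 W, with 2.02 at 5 W that did not pass (limma adjusted p = 0.0939). Dpp6, an auxiliary subunit of A-type channels, was higher by 3.74 and 2.83 at 1 W and 3 W. Adam23, a receptor for secreted LGI proteins, was higher by 2.29 and 1.94 at 3 W and 5 W. Abcc8, the sulfonylurea receptor that pairs with the product of Kcnj11, was higher by 2.40 at 1 W and 2.06 at 5 W. In EN 5, 6 and 7 of the 21 were lower than at P0 at 1 W, 3 W and 5 W, and in AN 0, 1 and 1.

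Of 4 hyperpolarization-activated cation channel genes tested, Hcn3 was higher in AN by 1.87 at 3 W and 2.07 at 5 W and fell by 4.12 in EN and by 2.33 in AN from P0 to 5 W.

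Other probes of a gene did not always follow the one used. Of 26 members with several tested probes, 5, 6 and 6 were called between AN and EN at 1 W, 3 W and 5 W, and for 3, 2 and 1 of these another probe had the opposite sign. For Kcnma1 the probe used and 3 others were higher in AN at 1 W by 3.24, 2.73, 2.72 and 0.66, and the last did not pass (limma adjusted p = 0.522). The other probe shown above, on the same strand of chromosome 14, gave -0.37 at 1 W, -0.43 at 3 W and -0.16 at 5 W. For Kcnq5 the probe used gave -0.07, -0.14 and 0.29 at 1 W, 3 W and 5 W, while the other probe shown gave 1.70 at 1 W and 1.94 at 5 W and passed at 3 W (limma adjusted p = 0.0235) and 5 W (limma adjusted p = 0.0248). A second probe of Kcnn2 gave -0.20, -0.06 and 0.09 where the probe used gave 3.13, 2.42 and 2.94.

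The levels of Kcnq5 by the probe used differed between the replicates at 5 W. The EN arrays read 11.18, 12.11 and 9.99 and the AN arrays 11.44, 12.66 and 10.03, and replicate 3 of each lay on the slide that held all 3 W arrays (9.73 to 10.69). The antisense transcript Kcnq1ot1 was 12.17 in EN and 11.22 in AN on that slide at 5 W against 12.76 to 13.48 on the other 5 W arrays. Each slide that held 5 W arrays held 1 EN and 1 AN array of that age with the same replicate number, so slide, scan and replicate cannot be told apart at 5 W.

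RefSeq promoters (build GRCm38.p6) were available for 56 of the 76 members, 76 in all. The 250 bases before the start are shown for the member with the clearest difference by fibre type, the one with the largest rise and one that fell in EN, with the matches to the motifs searched in capitals.
Kcnj10, chr1:172340960-172341209, plus strand: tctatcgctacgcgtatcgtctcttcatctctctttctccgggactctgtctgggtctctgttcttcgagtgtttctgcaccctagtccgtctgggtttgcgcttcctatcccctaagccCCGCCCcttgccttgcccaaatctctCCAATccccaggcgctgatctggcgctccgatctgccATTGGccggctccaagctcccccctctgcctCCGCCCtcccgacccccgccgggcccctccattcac
Kcnk1, chr8:125994852-125995101, plus strand: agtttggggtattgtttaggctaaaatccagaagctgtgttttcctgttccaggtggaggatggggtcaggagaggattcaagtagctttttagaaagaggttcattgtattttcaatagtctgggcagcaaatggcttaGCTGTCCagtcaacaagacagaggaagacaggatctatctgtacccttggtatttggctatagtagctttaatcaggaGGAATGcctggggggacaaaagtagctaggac
Kcnma1, chr14:24004206-24004455, minus strand: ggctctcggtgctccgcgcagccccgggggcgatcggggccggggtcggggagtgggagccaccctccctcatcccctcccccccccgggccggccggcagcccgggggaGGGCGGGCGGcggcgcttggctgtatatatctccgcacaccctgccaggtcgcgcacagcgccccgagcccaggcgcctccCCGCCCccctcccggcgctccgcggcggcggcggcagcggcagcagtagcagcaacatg

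Motifs were searched on both strands. The GC box, GGGCGG, was in 46.1% of the members' promoters and 32.7% of all 32851 promoters. The CCAAT box was in 27.6% and 33.8%. The TATA box, TATAAA, was in 3.95% and 12.4%. One E-box, CAGCTG, was in 25.0% and 13.0%, and the other, written CACGTG, was in 7.89% and 6.02%. The TEAD motif, GGAATG, was in 17.1% and 12.6%. The SOX motif, ACAAAG, was in 8 of the 76 promoters of members and in 16.5% of all. Part of the REST element, searched as GGACAGC, was in 11.8% and 5.28%. The median share of G and C was 58.8% in the members' promoters and 52.4% in all. Of 31 promoters of members that fell in EN by 5 W, 15 held the GC box, as did 4 of 8 promoters of members that rose. The TEAD motif was in 4 of these 31 and in 4 of these 8. These are matches of letters only, and in the Kcnma1 promoter 2 matches of the GC box share bases.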

How the data were processed

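RNA of efferent and afferent nerve fibres was hybridised to 24 one-colour arrays on 4 slides. Per the labels, the arrays were read with Agilent Feature Extraction 10.7.1.1. The deposited table holds log2 values that the authors had quantile normalized, with the same median in every column, and these were used. The scanner files' intensity columns, deposited by the authors, supplied background and saturation flags, gene names and mm9 coordinates, and their processed intensity correlated with the table at 0.995 or more on every array. Control spots were left out. The 36409 probes that some group had well above background on each of its 3 arrays were fitted with limma 3.58.1 in R 4.3.3, with 8 group means, empirical Bayes and 16 residual degrees of freedom. A call needed an adjusted p under 0.05 and a fold over 2. An F test over 3 contrasts asked whether the AN minus EN difference varied with age. Python 3.11.15 was used for tables and figures, and the fit was tested on simulated data.

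Same-numbered AN and EN arrays of the same age deviated together from their group means (correlations 0.107 to 0.646 in all pairs). The replicate number was therefore taken to pair them within an age. Between ages, same-numbered arrays of a fibre type had correlations from -0.347 to 0.378, so the number was not shown to link ages. The main fit left the pairing out, and the fit with the replicate block is given where it moves a count. The genes named are the members called with the largest differences, and members with a known place in axons, neurons or glia, called or not. The members and gene lists were chosen with earlier results of these data known. Results of a few genes are not reported here. Alternatives changed the background correction, scaling, filter, p adjustment, array weights, blocks and arrays included. The number of arrays, 3 per group, limits the precision, and an exact permutation test of 3 against 3 cannot give a p below 0.1.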

Additional observations from a re-analysis of the deposited data

Results flagged for a closer look

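The AN minus EN difference of 2 members varied with age by the limma F test over the 4 ages. For Kcnj10 (adjusted p = 1.13e-05) the difference was -0.68, 0.68, 1.83 and 2.54 from P0 to 5 W, and the sign of each held in 3 of 3 pairs of arrays. For Kcna6 (adjusted p = 0.00258) it was 0.45, 0.81, 1.98 and 2.15, also in 3 of 3 pairs. The pairs hold the same arrays that gave the F test. Where AN and EN arrays do not overlap, as for Kcnj10 at every age, any pairing keeps the sign. The pairs therefore add no support.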

How the results depend on the processing

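The numbers of members called were recomputed under each alternative. Shares over all probes are given above for the main fit and for the unadjusted AN against EN calls only. The other counts here, those of members that varied with age among them, have no such share beside them. With normexp background correction 12 were called in EN at 1 W and 15 in AN at 3 W against P0. With only probes above background on all 24 arrays, which keeps 46 members, AN against EN gave 5, 7 and 7 at 1 W, 3 W and 5 W, EN against P0 gave 12 and 24 at 1 W and 3 W, and AN against P0 gave 13 and 15 at 3 W and 5 W. With unadjusted p AN against EN gave 2, 22, 27 and 23 in the order of the ages, and 25 members varied with age. With the replicate block 22 were called at 3 W and 10 varied with age, and no other count moved by over 1.5 times. With the slide as a block EN against P0 gave 19 and AN 14 at 3 W, and 7 varied with age. With array weights 22 were called at 1 W and 17 varied with age. With only the 6 arrays of a comparison AN against EN gave 0, 7 and 3 at P0, 3 W and 5 W. Leaving out 1 array at a time, AN against EN gave 0 to 2 at P0, 4 to 13 at 1 W, 7 to 21 at 3 W and 10 to 17 at 5 W. Against P0, EN gave 12 to 20, 32 to 36 and 34 to 36 at 1 W, 3 W and 5 W and AN 6 to 10, 17 to 34 and 17 to 24, and 2 to 13 varied with age. Under the slide block 4 differences from P0 at 3 W changed sign: Kcnd2 in AN to 0.33, Kcnq1ot1 in EN to 0.38 and in AN to 0.43, and Kcnq5 in EN to 0.10. The cause of these changes was not tested.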

Other observations

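A second probe of Kcnk4, a stretch-sensitive two-pore channel gene called in no comparison by the probe used, was higher in AN than EN at 1 W by 2.33 (limma adjusted p = 0.00506), where the probe used gave 0.25. A second probe of Kcnd1, an A-type channel gene, gave 1.84 at 1 W (limma adjusted p = 0.195), where the probe used gave -0.16. These probes were picked after their values were seen.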
